A study of Mus musculus with 6 samples.

Results

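The genes described here make, sense or remove lysophosphatidic acid (LPA) and sphingosine 1-phosphate (S1P). They are 9 genes chosen by name, Lpar1, Lpar2, Lpar4, S1pr2, S1pr3, Enpp2, Sphk1, Plpp1 and Plpp3, of 25006 gene identifiers in the count tables. All 9 were matched by Ensembl identifier to their mouse symbols, and 5 of them had enough counts to be among the 12313 genes tested. Total RNA was sequenced from 2 stable lines derived from the mouse ovarian surface epithelium (MOSE), the cell layer around the ovary. The line MOSE-PAX8 overproduces the paired-box transcription factor PAX8, and MOSE-NEO serves as its reference. Both lines were grown under the selection agent G418 at 0.05 mg/mL, each group is 1 cell line with 3 libraries, and no other treatment is given. The sources used here do not say whether the lines are clones or pools, or which vector and promoter drive Pax8. The labels do not say whether the libraries of a line are independent cultures, so p-values here cover the spread among these libraries, and that spread may be technical.

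LPA and S1P are phospholipids that act outside the cell through G protein-coupled receptors. Autotaxin, encoded by Enpp2, releases LPA from lysophosphatidylcholine, and sphingosine kinases phosphorylate sphingosine to S1P. The receptors couple to Gi, Gq and G12/13 class proteins, through which they control the actin cytoskeleton, migration and growth, while lipid phosphate phosphatases at the cell surface remove the phosphate and end the signal. LPA is abundant in the ascites of ovarian cancer, and cells of the ovarian surface have been studied for their response to it.

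Of the 9 genes, MOSE cells expressed 1 LPA receptor, Lpar2, at a level in the upper range of tested genes. They expressed 1 S1P receptor, S1pr2, somewhat below the middle of that range. Neither receptor passed the test between lines. Sphk1, which makes S1P, and Plpp3, which degrades LPA and S1P, were higher in MOSE-PAX8, both from very low levels in MOSE-NEO to levels that were still low. S1pr3 and Lpar1 were near the limit of detection, and Lpar4 and Enpp2 had no counts in any library.

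The upstream sequence of the genes that carry these results was taken from RefSeq promoter windows on build GRCm38.p6, whose main chromosomes are those of mm10, the build of the counts. Of the 9 genes 7 had a window, and Plpp1 and Enpp2 did not match. The search covered the 250 bases before the start site on both strands for 4 motifs: the PAX paired-domain core GTCACGC, the TEAD motif GGAATG, the AP-1 motif TGACTCA and the EGR motif GCGTGGGCG. Of 32536 windows of that length in the table, 1.79% held the PAX core, 12.6% the TEAD motif, 4.45% the AP-1 motif and 0.541% the EGR motif. The sequences below are those of the genes that were higher in MOSE-PAX8 (Sphk1, Plpp3), of the low gene whose libraries did not overlap (S1pr3) and of the expressed S1P receptor (S1pr2). Each is 5′ to 3′ on the strand of the gene, shown only where it lies outside annotated exons, with a motif match in capitals. Sphk1 lies at chr11:116530850-116530924 (plus strand, the first of 5 start sites), Plpp3 at chr4:105157097-105157346 (plus), S1pr3 at chr13:51408368-51408617 (plus) and S1pr2 at chr9:20976794-20977043 (minus).
Sphk1: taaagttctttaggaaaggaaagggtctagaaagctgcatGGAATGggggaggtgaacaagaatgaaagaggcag
Plpp3: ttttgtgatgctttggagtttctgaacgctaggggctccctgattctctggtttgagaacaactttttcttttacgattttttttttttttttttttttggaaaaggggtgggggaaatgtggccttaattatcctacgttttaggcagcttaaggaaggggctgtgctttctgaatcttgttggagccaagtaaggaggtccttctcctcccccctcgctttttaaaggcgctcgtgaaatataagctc
S1pr3: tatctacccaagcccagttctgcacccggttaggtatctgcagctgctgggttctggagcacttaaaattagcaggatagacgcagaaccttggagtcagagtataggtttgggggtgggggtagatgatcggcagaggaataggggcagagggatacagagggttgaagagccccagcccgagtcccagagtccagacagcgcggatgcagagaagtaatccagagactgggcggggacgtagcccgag
S1pr2: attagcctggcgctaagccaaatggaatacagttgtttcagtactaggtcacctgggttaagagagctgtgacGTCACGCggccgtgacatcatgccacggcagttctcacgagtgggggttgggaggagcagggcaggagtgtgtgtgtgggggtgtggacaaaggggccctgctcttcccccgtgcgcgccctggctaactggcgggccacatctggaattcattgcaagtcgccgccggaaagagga
The PAX core was found in the S1pr2 window, 177 bases upstream of the start, and in none of the windows of the other 6 matched genes. The first Sphk1 window held the TEAD motif 210 bases upstream. Windows of 2 of its other start sites overlap and held the same AP-1 match, 50 and 124 bases upstream. That match lies beyond the stretch before the first annotated exon. The Lpar2 window held the AP-1 motif 221 bases upstream, and the Plpp3, S1pr3, Lpar4 and Lpar1 windows held none of the 4. A match is a description of letters and not of a site in use.

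The libraries held 23623762 to 36367825 counts, so that 3 counts in a library, taken as the limit that a count of 0 allows, were 0.0820 to 0.130 CPM, which are counts scaled to library size with TMM factors. These limits cover counting error only. Pax8 had 0, 1 and 1 counts in MOSE-NEO and 2570, 2973 and 3544 in MOSE-PAX8, as the labels have it. MOSE-NEO 1 and MOSE-PAX8 2 held more lincRNA (0.317% and 0.33% of counts against 0.146% to 0.195% in the others), and the values of Sphk1, Plpp3 and Acer1 are also given without this pair. All 10 markers of the ovarian surface epithelium were tested, and 7 fell in MOSE-PAX8, with a summed level of 13474 to 14979 CPM in MOSE-NEO against 7758 to 9141 in MOSE-PAX8. Stromal fibroblast markers summed to 14487 to 17276 CPM and 7222 to 8519 CPM, where 1 of 4 tested genes, Col1a2, fell. Endothelial markers summed to at most 1.03 CPM, with Cdh5 and Erg at 0 and none tested. Of 7 leukocyte markers 4 had at most 10 counts in any library, 1 rose (Ptprc) and 1 fell, and the list summed to 9.17 to 17.2 CPM and 8.96 to 10.3 CPM. Ptprc and, in the next list, Foxl2 reached the test only through MOSE-PAX8. Among granulosa and theca markers Fshr and Cyp19a1 were at 0, 1 rose (Foxl2) and 1 fell, with sums of 410 to 510 CPM and 350 to 391 CPM. The part of these shifts in the results below was not tested, and in bulk RNA fewer cells with a transcript cannot be told apart from less of it per cell.

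The comparison of lines asked how the genes of this pathway differ in MOSE-PAX8 from MOSE-NEO. Since PAX8 overproduction and line go together in this design, the part of PAX8 was not tested apart from other differences between the lines. Of the 5 genes tested 2 were called higher and 0 lower at an edgeR Benjamini-Hochberg adjusted p below 0.05. Sphk1, 1 of these 2, reached the test only through MOSE-PAX8, so its place among the 5 depended on its rise. Among all 12313 tested genes 33.9% were called, 17.9% higher and 16.1% lower, and 43.0% had an unadjusted p below 0.05, so a call by itself was common. The count of 0 lower was also 0 at an unadjusted p below 0.05, with DESeq2 and with limma-voom. The median log2 fold change over the 5 was -0.06, against 0.01 over all tested genes.

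**Figure D1:**
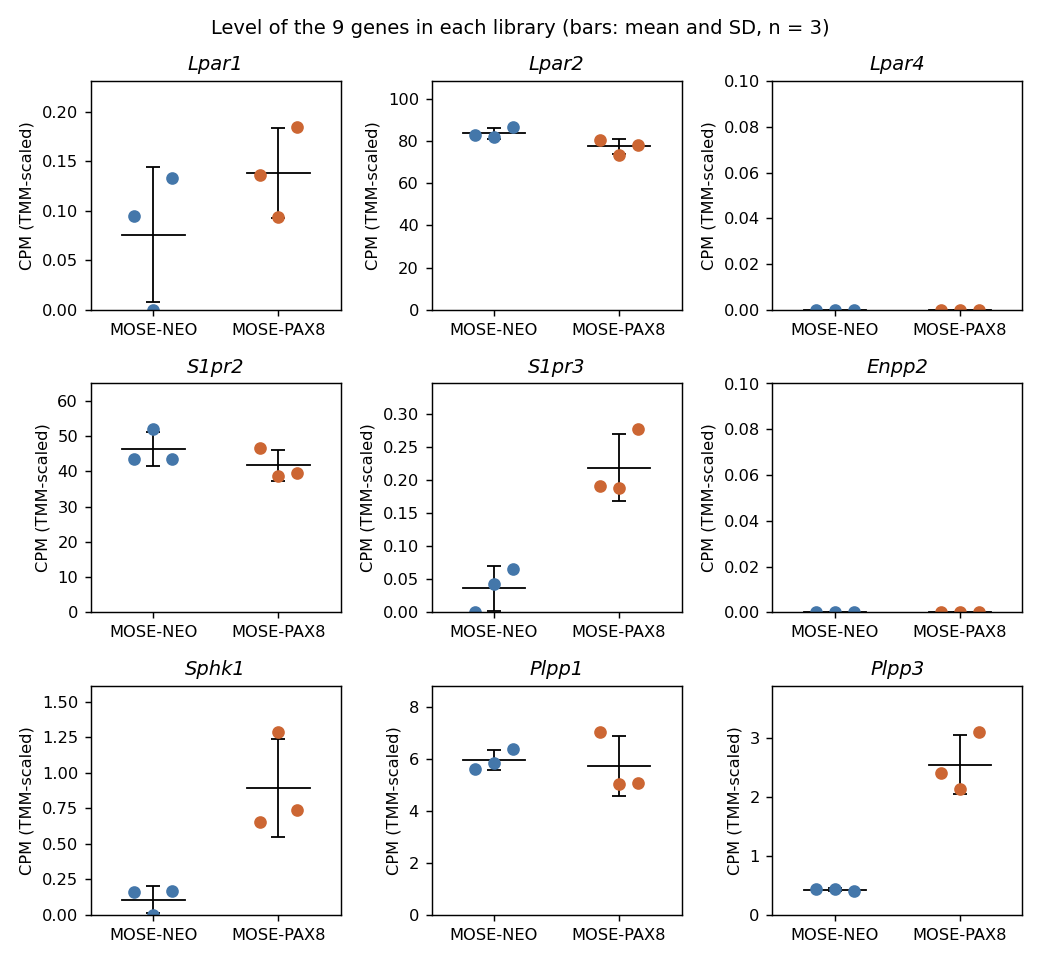
CPM of the 9 genes in each of the 6 libraries, 1 panel per gene with its own linear axis from 0; points are libraries, and bars are the mean and SD of 3 libraries. Sphk1 and Plpp3 lie wholly higher in MOSE-PAX8, S1pr3 does so at below 0.3 CPM, Lpar2 lies slightly lower, and Lpar4 and Enpp2 stay at 0.

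Among the enzymes that make the ligands, Sphk1 (ENSMUSG00000061878, chromosome 11, 116530925 to 116536674, plus strand) was called higher. Its counts were 5, 0 and 5 in MOSE-NEO and 24, 41 and 24 in MOSE-PAX8, or 0.159, 0 and 0.166 CPM against 0.656, 1.29 and 0.74 CPM. All 3 MOSE-PAX8 libraries lay above all MOSE-NEO libraries, with MOSE-PAX8 2 the highest. The log2 fold change was 2.89 ± 0.61 (SE; 95% interval 1.51 to 4.28, a fold of 2.85 to 19.4), with an edgeR adjusted p of 0.0066. The ratio of the summed counts was 7.47, with a counting interval of 3.88 to 16.1. Without the lincRNA-rich pair the log2 fold change was 2.84 (adjusted p = 0.034). Sphk1 reached the test only through MOSE-PAX8, since no MOSE-NEO library held the 0.320 CPM that the filter required, so with its MOSE-NEO level it could be tested only if it differed. Even in MOSE-PAX8 it lay above only 5.10% of tested genes per kilobase of exon. An annotated antisense gene, Gm29292, covers 4.02% of its exonic bases, and 4.55% of its 50-base stretches occur in other genes.

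The other sphingosine kinase, Sphk2, made up nearly all of the kinase transcripts. It had 28.1 ± 0.296 CPM in MOSE-NEO against 32.3 ± 1.81 in MOSE-PAX8 (SD, n = 3), without overlap, and did not pass (log2 fold change 0.20 ± 0.08 SE, edgeR adjusted p = 0.0827). Of the summed kinase level per kilobase, Sphk1 held 0.495%, 0% and 0.508% in MOSE-NEO and 1.86%, 3.22% and 1.93% in MOSE-PAX8. Its share thus grew in every MOSE-PAX8 library and stayed a small part of the pool. Antisense Rpl18 and Dbp overlap 21.9% of the Sphk2 exons, so its counts are uncertain without a stated strand.

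Enpp2, the autotaxin gene (ENSMUSG00000022425, chromosome 15, 54838901 to 54952892, minus strand), had 0 counts in all 6 libraries. This allows up to 0.0355 CPM over the 3 MOSE-NEO libraries and 0.0298 CPM over those of MOSE-PAX8. Pla1a and Lipi, which encode phospholipases that can release LPA, were also at 0, and Liph had 1 to 6 counts per library. Gpam, the mitochondrial acyltransferase that forms LPA as an intermediate of glycerolipid synthesis, rose from 59.5 ± 1.91 to 77.7 ± 3.11 CPM (SD, n = 3; log2 fold change 0.38 ± 0.07 SE, edgeR adjusted p = 0.0032). Of 6 LPA synthesis genes 2 were tested, 1 rose and 0 fell, a count of 0 that also held at an unadjusted p below 0.05, with DESeq2 and with limma-voom.

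The 7 genes of S1P synthesis include ceramidases, which release the sphingosine that the kinases use. Of 6 tested, 1 rose (Sphk1) and 2 fell. Acer1, an alkaline ceramidase, had 29, 21 and 76 counts in MOSE-NEO and 4, 3 and 3 in MOSE-PAX8, with MOSE-NEO 3 the highest. It was 14.2-fold lower (log2 fold change -3.83 ± 0.57 SE, edgeR adjusted p = 0.0012), or -3.16 on the log2 scale without MOSE-NEO replicate 3 and -4.08 without the lincRNA-rich pair (adjusted p = 0.00833), and it reached the test only through MOSE-NEO. Asah2, the neutral ceramidase, named after its values were seen, was 1.66-fold lower (28.7 ± 3.84 to 17.3 ± 0.208 CPM, adjusted p = 0.00109). Asah1, the acid ceramidase, had 100 ± 11.7 and 98.8 ± 14.2 CPM and did not pass (adjusted p = 0.928).

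Among the LPA receptors Lpar2 was the most abundant (ENSMUSG00000031861, chromosome 8, 69822429 to 69831102, plus strand). Its CPM were 82.7, 81.7 and 86.7 in MOSE-NEO and 80.6, 73.5 and 78.1 in MOSE-PAX8, from 1879 to 2948 counts per library. The lines did not overlap, but the gap between MOSE-NEO 2 and MOSE-PAX8 1 was small, and 47.6% of all tested genes likewise had no overlap. The log2 fold change was -0.11 ± 0.07 (SE), with an edgeR adjusted p of 0.263. The 95% interval of the fold was 0.828 to 1.03. Per kilobase of exon Lpar2 lay above 70.1% of tested genes in MOSE-NEO and 68.2% in MOSE-PAX8.

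Lpar1, the most widely expressed LPA receptor in many tissues (ENSMUSG00000038668, chromosome 4, 58435255 to 58553898, minus strand), was barely detected. It had 3, 0 and 4 counts in MOSE-NEO and 5, 3 and 6 in MOSE-PAX8, and the lines overlapped. The ratio of summed counts was 1.68 (counting interval 0.634 to 4.91), and an exact two-sided permutation test over the 6 libraries gave p = 0.3, where the smallest possible with 3 against 3 is 0.1. Lpar4 (ENSMUSG00000049929, chromosome X, 106920625 to 106933900, plus strand), which encodes a receptor of the purinergic-like group, had 0 counts in all libraries, with the same limits as Enpp2.

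The rest of the LPA receptor family held 1 more expressed gene. Lpar6 (chromosome 14, 73237895 to 73243294), a receptor of the same purinergic-like group, fell from 31.3 ± 3.6 to 22.3 ± 1.27 CPM (SD, n = 3; log2 fold change -0.49 ± 0.10 SE, edgeR adjusted p = 0.00611). Over its 50 nearest tested genes the median was -0.49 on the log2 scale, and with that local median as an offset the value for Lpar6 was 0.00 (adjusted p = 0.994). Lpar6 lies within the Rb1 gene, whose exons cover 7.56% of it on the other strand, so its counts too are uncertain without a stated strand. Lpar3 had 0 counts and Lpar5 at most 2 in any library. Of the family's summed level per kilobase, Lpar2 held 71.1% ± 2.57 in MOSE-NEO and 76.1% ± 0.621 in MOSE-PAX8, and Lpar6 28.7% ± 2.44 and 23.7% ± 0.637 (SD, n = 3). The summed level itself was 20.2 ± 0.785 and 17.4 ± 0.83 CPM per kilobase. Lpar1 held at most 0.247% and Lpar5 at most 0.202% of it in any library.

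**Figure D2:**
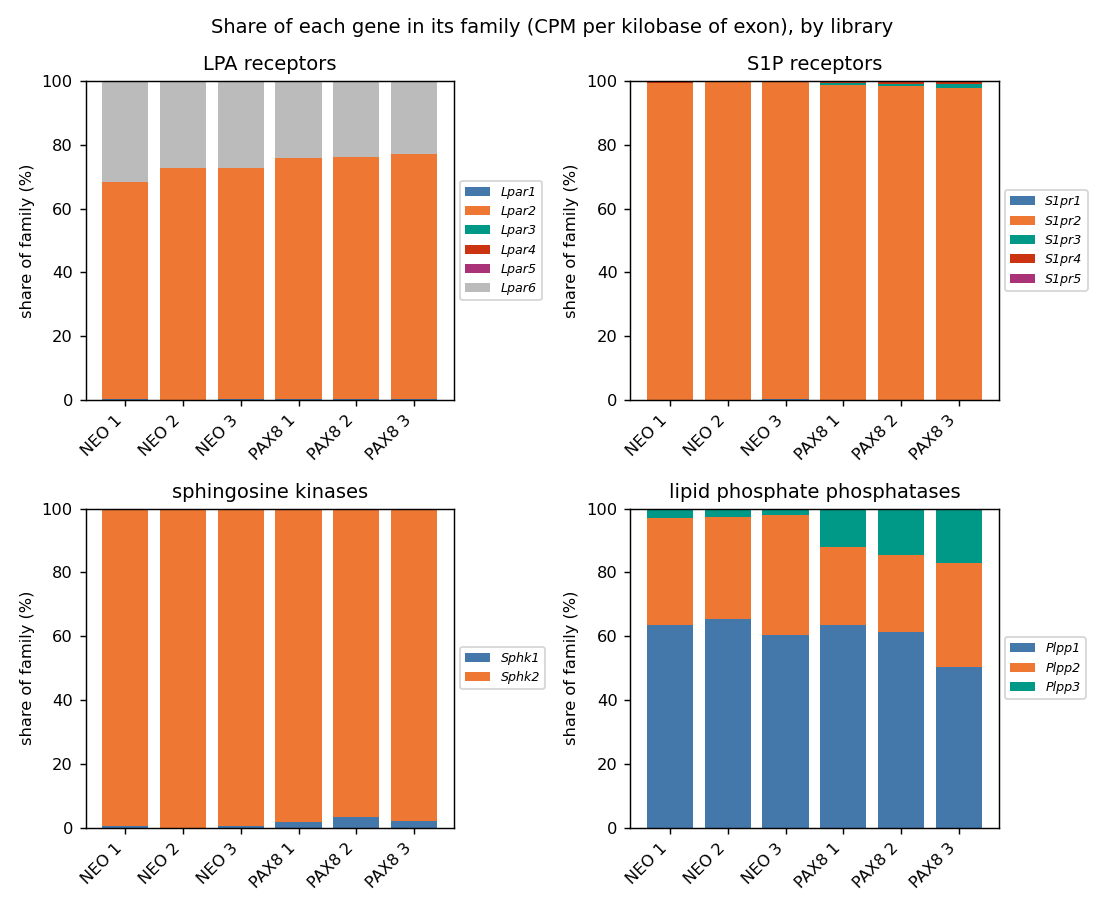
Share of each gene in the summed level per kilobase of its family (LPA receptors, S1P receptors, sphingosine kinases, lipid phosphate phosphatases) in each of the 6 libraries, as stacked bars from 0 to 100%. The largest shift is in the phosphatases, where Plpp3 goes from 2.08% to 2.78% in MOSE-NEO to 12.03% to 17.1% in MOSE-PAX8, while S1pr2 and Sphk2 fill nearly all of their families in both lines. Exons on the other strand overlap Plpp1, Sphk2 and Lpar6, so shares that include their counts are uncertain.

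Among the S1P receptors S1pr2, which signals mainly through G12/13 class proteins, stood alone (ENSMUSG00000043895, chromosome 9, 20962361 to 20976781, minus strand). Its CPM were 43.6, 52 and 43.6 in MOSE-NEO and 46.7, 38.8 and 39.6 in MOSE-PAX8, and the lines overlapped. The log2 fold change was -0.15 ± 0.11 (SE; 95% interval -0.39 to 0.09), with an edgeR adjusted p of 0.308. S1pr2 lay above 45.2% of tested genes per kilobase in MOSE-NEO and 42.1% in MOSE-PAX8. It held 99.6% ± 0.189 of the summed S1P receptor level in MOSE-NEO and 98.3% ± 0.471 in MOSE-PAX8 (SD, n = 3).

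S1pr3, a receptor that couples to Gi, Gq and G12/13 class proteins (ENSMUSG00000067586, chromosome 13, 51408639 to 51422797, plus strand), had 0, 1 and 2 counts in MOSE-NEO and 7, 6 and 9 in MOSE-PAX8. These are 0, 0.0435 and 0.0664 CPM against 0.191, 0.189 and 0.277 CPM, without overlap. The ratio of summed counts was 6.15, with a counting interval of 1.85 to 32.1, and the exact two-sided permutation p was 0.1, the smallest the design allows. S1pr3 did not reach the test. With no low-count filter it had a log2 fold change of 2.48 (edgeR adjusted p = 0.0387), and DESeq2 gave 2.59 (adjusted p = 0.136), so its call depended on the tool and filter. S1pr1, the receptor that dominates in endothelium, had 1 count in all 6 libraries together, S1pr4 had at most 3 and S1pr5 at most 1 per library.

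Among the enzymes that remove the ligands, Plpp3 (ENSMUSG00000028517, chromosome 4, 105157347 to 105232764, plus strand), a phosphatase of the cell surface, showed the more precise of the 2 rises. It had 14, 10 and 12 counts in MOSE-NEO and 88, 68 and 101 in MOSE-PAX8, or 0.445, 0.435 and 0.398 CPM against 2.41, 2.14 and 3.11 CPM. The MOSE-NEO libraries lay close together, and all MOSE-PAX8 libraries lay well above them. Per kilobase of exon Plpp3 lay above 5.27% of tested genes in MOSE-NEO and still only 14.9% in MOSE-PAX8. The log2 fold change was 2.57 ± 0.27 (SE), a fold of 5.95 with a 95% interval of 3.9 to 9.06, and the edgeR adjusted p was 0.000181. Of all tested genes 6.07% were called with a rise of at least 1 on the log2 scale. Plpp3 was chosen with earlier results of these data known, so this share adds no support of its own. All 3 libraries of each line passed the filter, so its test did not depend on the rise. Without the lincRNA-rich pair the log2 fold change was 2.71 (adjusted p = 0.00253). No annotated gene overlaps its exons, and its 50 nearest tested genes had a median log2 fold change of 0.02.

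Plpp1, a phosphatase of the same family (ENSMUSG00000021759, chromosome 13, 112800792 to 112867894, plus strand), had 5.62, 5.87 and 6.41 CPM in MOSE-NEO against 7.06, 5.06 and 5.09 in MOSE-PAX8. MOSE-PAX8 1 was the highest and the other two MOSE-PAX8 libraries the lowest of the 6. The log2 fold change was -0.06 ± 0.17 (SE; 95% interval -0.45 to 0.33), with an edgeR adjusted p of 0.835. Exons of Mtrex on the other strand cover 25.8% of its exonic bases, and Mtrex had 120 ± 4.12 and 121 ± 8.12 CPM (SD, n = 3), so the Plpp1 counts are uncertain without a stated strand. Plpp2, the remaining family gene, had 3.09 ± 0.575 and 2.51 ± 0.614 CPM and did not pass (log2 fold change -0.30 ± 0.24 SE, adjusted p = 0.382). Its 50 nearest tested genes had a median of 0.44. With that local median as an offset the value for Plpp2 was -0.74, also not called (edgeR adjusted p = 0.0521).

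The 3 phosphatases thus differed in how they changed between the lines. Their summed level per kilobase was 5.41 ± 0.557 CPM in MOSE-NEO against 5.6 ± 0.825 in MOSE-PAX8 (SD, n = 3), with overlap. Plpp3 held 2.78%, 2.69% and 2.08% of it in MOSE-NEO and 12.03%, 14.4% and 17.1% in MOSE-PAX8, and Plpp1 remained the largest part with 63.1% ± 2.53 and 58.5% ± 7.14. The sum and these shares rest on the uncertain Plpp1 counts. The wider removal list, which adds the S1P phosphatases and lyase and the acyltransferases that turn LPA into phosphatidic acid, had 11 of 12 genes tested. Of these 2 rose, Plpp3 and Agpat4 (1.55-fold, adjusted p = 0.00611), and 0 fell, with 1 lower at an unadjusted p below 0.05 and 0 with DESeq2 and limma-voom. Agpat4 was named after its values were seen. Over the list the median log2 fold change was 0.05.

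The order of levels can be compared only per length of exon. In MOSE-NEO it ran from Lpar2 (14.3 ± 0.45 CPM per kilobase, SD, n = 3) through S1pr2 (5.82 ± 0.605) and Plpp1 (3.41 ± 0.229) to Plpp3 (0.135), with no overlap between these neighbours. Below them came Sphk1 (0.0227), Lpar1 (0.0177) and S1pr3 (0.00821), whose libraries overlapped with those of the next in order. In MOSE-PAX8 the order was Lpar2 (13.3), S1pr2 (5.23), Plpp1 (3.28), Plpp3 (0.808) and Sphk1 (0.187), again without overlap between neighbours, and then S1pr3 (0.0491) and Lpar1 (0.0323), which overlapped. The first 4 places were therefore the same in both lines, and the 2 called genes stayed below the 3 that did not pass. The place of Plpp1 rests on its uncertain counts.

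**Figure D3:**
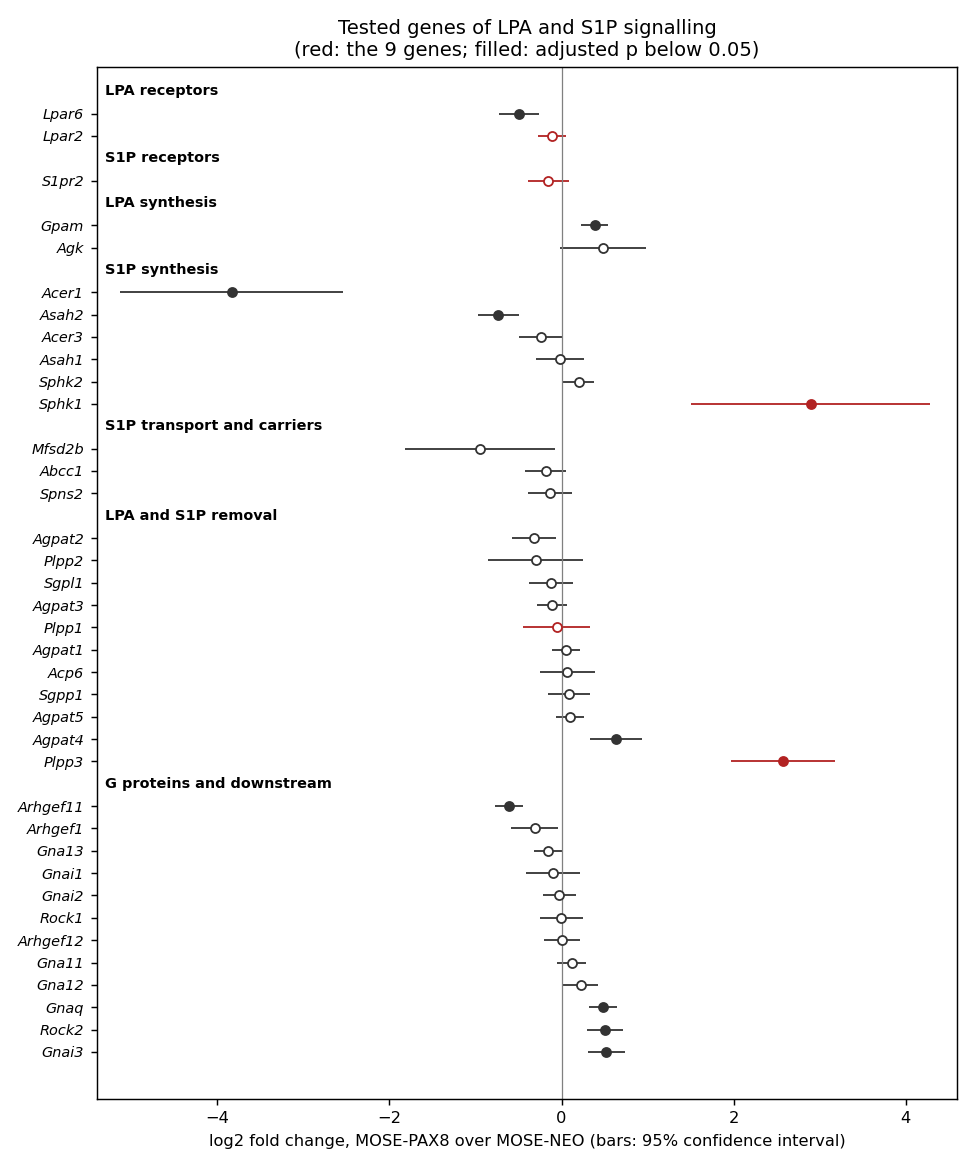
Log2 fold change (MOSE-PAX8 against MOSE-NEO, horizontal axis) with 95% intervals for tested genes of ligand synthesis, transport, receptors, removal and G protein signalling, grouped by role. Red marks the genes described here and filled points those called; Sphk1 (2.89) and Plpp3 (2.57) lie far to the right, Acer1 (-3.83) far to the left, and most others lie near 0.

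The other genes of the pathway were taken from lists by role. Of 53 genes in these lists without response genes 38 were tested, 7 were called higher and 4 lower, 28.9% in all against 33.9% of all tested genes, with a median log2 fold change of -0.02. Without the 9 genes described above, 33 were tested, 5 were called higher and 4 lower (27.3%). Both counts include Acer1, and the first also Sphk1, each of which reached the test only through 1 line. The lists were made with earlier results of these data known. Among 3 tested genes of S1P transport none was called, with 1 lower at an unadjusted p below 0.05 and 0 with DESeq2 and limma-voom; the S1P exporter Spns2 was the most abundant, at 139 ± 15.1 and 127 ± 15.5 CPM (SD, n = 3; edgeR adjusted p = 0.397).

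Of 13 genes for the G proteins to which these receptors couple and for proteins that act downstream of them, all were tested, 3 rose and 1 fell. Arhgef11, a guanine nucleotide exchange factor that G12/13 class proteins activate, fell from 85.7 ± 4.29 to 56.4 ± 1.69 CPM (SD, n = 3; log2 fold change -0.61 ± 0.07 SE, edgeR adjusted p = 0.000364). Its chromosomal neighbours had a median of -0.54, and with the local median as an offset the value was -0.06 (adjusted p = 0.556). Gnaq, Gnai3 and the protein kinase gene Rock2, named after their values were seen, were 1.4-fold, 1.43-fold and 1.42-fold higher (adjusted p = 0.00113, 0.00331 and 0.00352). With the local offset Gnaq and Gnai3 were no longer called (adjusted p = 0.0965 and 0.207). The G12/13 subunit genes Gna12 and Gna13 had log2 fold changes of 0.22 ± 0.09 and -0.16 ± 0.07 (SE), neither of them called.

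Response genes, which LPA and S1P are known to induce but which many other signals induce too, moved in both directions. Of 12 listed 9 were tested, 5 rose and 2 fell, with a median of 0.91 on the log2 scale, where 33.9% of all tested genes were called with a median of 0.01. This list too was made with earlier results of these data known, and its share was not tested against that of other genes. Egr1, an immediate early transcription factor, rose 8.37-fold from 6.77 ± 1.3 to 56.4 ± 12.5 CPM (SD, n = 3; edgeR adjusted p = 1.37e-05). The matricellular gene Ccn1 (also Cyr61) rose 2.15-fold from 250 ± 25.8 to 538 ± 33.8 CPM (adjusted p = 8.72e-05), while its relative Ccn2 (also Ctgf) had 1840 ± 549 and 1908 ± 358 CPM and did not pass (adjusted p = 0.881). Ankrd1 went from 1 count in MOSE-NEO to 188 ± 78 CPM in MOSE-PAX8, and it reached the test only through MOSE-PAX8. Genes of this list named after their values were seen moved both ways: Fos was 1.88-fold higher, and Hbegf and Lif were 1.44-fold and 1.78-fold lower (adjusted p = 0.00207, 0.0104 and 0.000842). The part of LPA or S1P signalling in these changes was not tested.

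The genes whose profile over the 6 libraries lay nearest to that of Sphk1 were Hpgds, Dcbld1 and Syt2, at Euclidean distances of 0.769, 0.772 and 0.841 between centred log2 (CPM + 0.1) values. All 3 had at most 5 counts per MOSE-NEO library, like Sphk1, and Hpgds had 17, 20 and 18 counts in MOSE-PAX8. The distance is a description over 6 libraries and shows nothing of shared control.

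**Figure D4:**
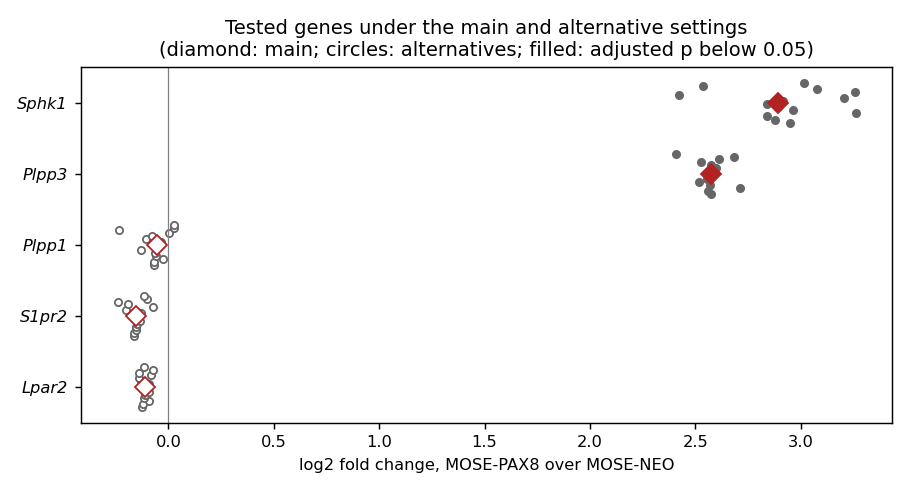
Log2 fold change of the 5 tested genes as reported and under each of up to 15 alternative settings (horizontal axis, 1 row per gene). Sphk1 stays between 2.42 and 3.26 and Plpp3 between 2.41 and 2.71, while Lpar2 and S1pr2 stay slightly below 0 and Plpp1 lies on both sides of 0.

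The 2 rises kept their call in every setting in which the gene was tested. For Plpp3 these were 15 settings, with adjusted p from 2.34e-09 to 0.00253. For Sphk1 they were 14, with adjusted p from 0.00062 to 0.034, since the filter of 1 CPM in 3 libraries left Sphk1 out. In the main fit Sphk1 reached the test only through MOSE-PAX8, so its kept calls add no support of their own. Lpar2, S1pr2 and Plpp1 were called in none of 15.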

How the data were processed

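RNA of 6 libraries was sequenced, and the sample titles gave groups and replicate numbers. The authors deposited raw counts per Ensembl gene, 1 table per library. Per the submitters' processing notes, cutadapt 1.13, STAR, HTSeq 0.6.1p1, DESeq2 and build mm10 were used; the sources used here do not give the gene annotation, the strand setting or the handling of multiply aligned reads. Symbols, exon lengths and coordinates, counted from 1, came from GENCODE M21, in which 24942 of 25006 identifiers were matched.

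MOSE-PAX8 was compared with MOSE-NEO by edgeR 4.0.16 (R 4.3.3), with its quasi-likelihood test on the deposited counts (TMM factors, filterByExpr, Benjamini-Hochberg adjustment over 12313 genes, call below 0.05). SE were worked back from the estimate and test statistic. Genes under the filter are given by counts, with exact counting intervals at 95% and an exact permutation test. Values are mean ± SD over 3 libraries. The 50 nearest tested genes gave the local median. The code of the fit was tried on simulated counts with a small fixed dispersion and few changed genes. Those settings differ from the data here, so the trial does not show how often the calls are right. Between libraries of a line the variance was 13.3 or more times that of sampling, and none was merged in the fit. The counting intervals and the limits over a line use counts summed over its 3 libraries, so they leave out that spread.

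The 9 genes and all lists were chosen with earlier results of these data known. Named are the 9 genes, the rest of their receptor, kinase and phosphatase families, and from each other list every called gene with a log2 change of 1 or more either way, or else the called gene with the smallest adjusted p, or else the most abundant; other names were chosen after their values were seen. List counts include a few genes that are not reported here. For the called gene with the largest rise and fall, the 3 nearest profiles are named; none was called lower. Alternatives were DESeq2 1.42.0, limma-voom (limma 3.58.1), RLE and upper-quartile factors, no filter, the replicate block, a filter of 1 CPM in 3 libraries, each library left out, both lincRNA-rich libraries left out, the local median as an offset, and the longest transcript as length.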

Additional observations from a re-analysis of the deposited data

How the results depend on the processing

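Of 492 comparisons of a result with an alternative setting, 477 were taken as kept. For fold changes this meant the same direction and side of the threshold, and for levels a difference within the spread. For counts of called genes the rule was looser: 1545 genes higher against 2199, and 3 of the 9 genes against 2, passed as kept. Among fold changes of the tested genes described here 71 of 74 were kept, and among those of the other named genes 307 of 314. With 1 library left out in turn, 1314 to 1843 genes were called lower (1979 in full), the least without MOSE-PAX8 replicate 3, and 1545 to 2065 higher (2199 in full). Over the same fits the log2 fold change of Plpp1 ranged from -0.23 to 0.028, turning to 0.0035 without MOSE-NEO replicate 3 and to 0.028 and 0.025 without MOSE-PAX8 replicate 2 and 3, and that of Ccn2 from -0.17 to 0.27, turning to -0.17, -0.05 and -0.0028 without MOSE-NEO replicate 2, MOSE-PAX8 replicate 1 and MOSE-PAX8 replicate 3. None of these was called. The filter of 1 CPM in 3 libraries left 1 of the 9 genes called higher, because Sphk1 was not tested, and no filter gave 3, with S1pr3 added. With the local chromosome median as an offset Lpar6 was at 0.00 (0.0013), Arhgef11 at -0.06, Gnaq at 0.18 and Gnai3 at 0.18, none called. With the longest transcript as length the level per kilobase of S1pr2 was 7.25 CPM in MOSE-NEO against 6.52 in MOSE-PAX8, and that of Plpp1 in MOSE-NEO 3.73 CPM.

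The replicate numbers are shared by title only: deviations of same-numbered libraries correlated at -0.45, 0.05 and 0.38, and not every library correlated best with its own number. With the replicate block 2 of the 9 genes were called higher, Sphk1 at 2.84 (edgeR adjusted p = 0.019) and Plpp3 at 2.56 (0.000928), with 2070 genes higher and 1863 lower overall. Depth limits Lpar1, Lpar4, S1pr3 and Enpp2, which had 0 to 9 counts per library.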
